A study of Caenorhabditis elegans with 2 samples.

Results

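The 80 protein-coding genes named his- or hil- in the Ensembl annotation of the Caenorhabditis elegans genome (WBcel235, the same build as ce11) were examined for binding of LIR-3, out of 19973 nuclear protein-coding genes. All were taken by name: 72 are his- genes and 8 are hil- genes. Linker histone H1 is encoded by 9 of them. For hil-8 and his-24 this class was set by rule, as their RefSeq products are named H15 domain-containing protein and Histone 24. By the RefSeq product names, 17 genes encode H2A, 16 H2B, 15 H3, 5 the variant H3.3 and 16 H4. For the 2 genes his-39 and his-73 the core type is not named. In the annotation, 64 have no intron and 16 have at least 1. A gene was called clustered when the next histone gene's 5' end lay within 5 kb, which put 67 genes in 15 clusters of 2 to 13 genes and left 13 solitary, 9 of them H1 genes and 3 H3.3 genes.

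LIR-3, a protein of the family related to LIN-26, was measured by ChIP-seq (chromatin immunoprecipitation and sequencing) in whole hermaphrodite L1 larvae, collected 6 h after synchronization as starved L1 after bleaching. The strain, OP312, carries unc-119(ed3) III and the integrated transgene wgIs312, from which LIR-3 is expressed with GFP and FLAG at its C-terminus, and an anti-GFP antibody was used. The 2 biological replicates form a single group, so binding was not compared between conditions. The labels name a control experiment, which was not analysed here, and the scores at histone genes, copied clusters included, were not checked against control signal. The signal is that of a tagged transgene over all tissues of the larva together. The lists of regions used were 4: those of replicate 1, of replicate 2 and of both pooled, each before any threshold, and the IDR set, the part of the pooled list that passed the authors' test of irreproducible discovery rate between replicates. The IDR set held 1894 nuclear peaks with scores of 89.9 or higher, and the pooled list 29984 nuclear regions with scores of 26.0 or higher. The lists before the threshold hold 30000 regions each, mitochondrial ones included. The pooled list is labelled by the authors as peaks and background, so a region in it need not be a binding site. A score is the authors' value for a region, with no unit given, and ranks are by score among the nuclear regions of a list. Read depth is unknown.

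Histones H2A, H2B, H3 and H4 form the octamer around which DNA is wound in a nucleosome, and H1 binds the linker DNA between nucleosomes. In C. elegans, as in other animals, the core genes expressed during DNA replication lie in repeated clusters, often as divergent pairs that share the stretch of DNA between their 5' ends. Replacement variants such as H3.3 are put into chromatin outside of replication, and their genes usually stand alone and have introns. The copies of a core gene are so alike that short sequencing reads from one can match another.

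For 7 histone genes the IDR set had a summit at most 500 bp from the 5' end, at 5 distinct summits, because 2 of the summits lie between divergent genes and serve both. That is 8.75% of 80 genes (exact Clopper-Pearson 95% interval 3.59 to 17.2%), against 6.09% of all protein-coding genes, so the share among histone genes was near the background. All 7 genes had the summit upstream, 82 to 236 bp from the 5' end, where 92.8% of the 1216 protein-coding genes with an IDR summit had theirs upstream too. The strongest was at the H4 gene his-37, then came the H4 and H2A pair his-67 and his-68, the H1 gene hil-7, the H4 and H3 pair his-31 and his-32, and the H3.3 gene his-72.

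The genomic sequence around 4 of these 5 summits is given to show the DNA that they are centred on, and that of his-67 and his-68, the second strongest, is not printed. Each runs 100 bp to either side of the pooled summit, with bases inside protein-coding genes left out, on the strand of the gene or, for a divergent pair, on the plus strand. Capitals mark the 8 letters TGTGTCCC, or GGGACACA on the opposite strand, which were picked after these sequences had been read.
his-37 (chrV:9546923-9547104, plus strand): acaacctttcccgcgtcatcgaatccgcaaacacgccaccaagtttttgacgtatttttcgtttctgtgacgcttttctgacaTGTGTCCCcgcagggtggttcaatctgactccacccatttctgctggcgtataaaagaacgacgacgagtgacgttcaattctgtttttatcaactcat
hil-7 (chrIV:6646095-6646295, plus strand): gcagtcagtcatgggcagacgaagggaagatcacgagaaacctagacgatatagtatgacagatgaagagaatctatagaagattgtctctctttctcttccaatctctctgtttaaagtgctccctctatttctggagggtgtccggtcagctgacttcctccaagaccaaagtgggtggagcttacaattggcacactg
his-31 and his-32 (chrIV:8334033-8334233, plus strand): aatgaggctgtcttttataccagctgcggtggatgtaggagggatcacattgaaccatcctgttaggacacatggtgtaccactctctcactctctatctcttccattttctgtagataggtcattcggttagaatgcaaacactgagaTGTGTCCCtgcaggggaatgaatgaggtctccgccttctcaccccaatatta
his-72 (chrIII:12369067-12369267, minus strand): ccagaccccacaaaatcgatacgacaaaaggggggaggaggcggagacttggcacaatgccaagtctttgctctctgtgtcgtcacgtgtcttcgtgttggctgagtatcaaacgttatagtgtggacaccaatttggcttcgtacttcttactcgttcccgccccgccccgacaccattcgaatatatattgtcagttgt
The letters occurred near the summit of his-37 and of his-31 and his-32, and not within 100 bp of those of hil-7 and his-72.

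The same stretch is given for 5 summits of the pooled list that stayed below the IDR set, because they carry the same letters at both core and linker histone genes.
his-3 and his-4 (chrV:16040585-16040785, plus strand): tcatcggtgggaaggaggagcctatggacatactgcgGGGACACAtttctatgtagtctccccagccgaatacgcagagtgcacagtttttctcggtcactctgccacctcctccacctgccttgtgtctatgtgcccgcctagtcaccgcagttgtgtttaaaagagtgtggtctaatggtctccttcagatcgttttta
his-5 and his-6 (chrV:8535039-8535213, plus strand): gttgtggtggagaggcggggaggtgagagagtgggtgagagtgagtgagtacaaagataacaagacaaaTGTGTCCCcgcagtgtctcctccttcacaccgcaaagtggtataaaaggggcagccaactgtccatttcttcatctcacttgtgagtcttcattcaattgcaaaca
his-61 and his-62 (chrIV:7486302-7486502, plus strand): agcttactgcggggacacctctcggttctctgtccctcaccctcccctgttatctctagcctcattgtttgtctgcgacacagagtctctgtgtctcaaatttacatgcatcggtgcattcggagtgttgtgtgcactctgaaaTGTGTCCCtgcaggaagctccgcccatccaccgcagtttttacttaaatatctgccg
hil-3 (chrX:8158972-8159168, plus strand): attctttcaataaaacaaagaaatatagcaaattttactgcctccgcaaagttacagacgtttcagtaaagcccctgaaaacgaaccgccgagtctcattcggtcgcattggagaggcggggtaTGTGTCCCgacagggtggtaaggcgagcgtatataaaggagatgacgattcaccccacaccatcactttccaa
his-24 (chrX:14489981-14490093, plus strand): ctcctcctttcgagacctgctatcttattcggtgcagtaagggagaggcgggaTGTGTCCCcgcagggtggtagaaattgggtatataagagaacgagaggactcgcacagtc
Read on the strand that holds TGTGTCCC, the next 5 letters were CGCAG at his-37, his-24, his-3 and his-4, and his-5 and his-6, TGCAG at his-31 and his-32 and at his-61 and his-62, and GACAG at hil-3. Of the printed windows, only that of his-5 and his-6 falls well short of full uniqueness in the genome: 73.1% of its 31-mers (stretches of 31 bases) occur once, against 100% in each of the others.

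At his-37 (WBGene00001911, chrV:9547105-9547607, plus strand, 2 exons), which encodes H4, the pooled score was 627.9, with 310.2 in replicate 1 and 346.0 in replicate 2. These placed the region at rank 129 of the pooled list, 126 in replicate 1 and 123 in replicate 2, so that both replicates put it at almost the same place. The summit lay 82 bp upstream at chrV:9547023, in a region of chrV:9546918-9547106 that ends at the gene's start. It shares a locus with the divergent H2A and H2B genes his-35 and his-41, and the 3 genes each have 2 exons, unlike most clustered histone genes.

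The H1 gene hil-7 (WBGene00001858, chrIV:6646312-6646972, plus strand, 3 exons) scored 301.0 in the pooled list, 133.7 in replicate 1 and 174.8 in replicate 2. The ranks were 414, 503 and 401, again close between replicates, and the summit lay 117 bp upstream. Within 500 bp of the same summit are the 5' ends of an ncRNA gene, C01B10.45, at 327 bp, and of a snoRNA gene, C01B10.48, at 446 bp, both farther than hil-7. A weaker pooled region of score 26.8, with its summit 476 bp inside hil-7, ranked 28449 and was outside the IDR set.

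Between his-31 (WBGene00001905, chrIV:8333672-8333983, H4) and his-32 (WBGene00001906, chrIV:8334305-8334715, H3) the pooled score was 174.2, with 67.5 in replicate 1 and 101.0 in replicate 2. The summit was 150 bp upstream of his-31 and 172 bp upstream of his-32, and ranked 845. The 4 other genes of this cluster, his-29, his-30, his-33 and his-34, had no summit within 500 bp in any of the 4 lists.

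The H3.3 gene his-72 (WBGene00001946, chrIII:12367475-12369050, minus strand, 3 exons) scored 100 in the pooled list, 58.1 in replicate 1 and 32.9 in replicate 2. It ranked 1643 of 1894 in the IDR set, near its lower end, and its rank fell from 1454 in replicate 1 to 4193 in replicate 2, so his-72 is the histone gene of the IDR set whose replicates differed most in rank. With each replicate's 1894 strongest regions in place of the IDR set, his-72 was called in replicate 1 and not in replicate 2. A second pooled region within his-72, of score 32.7, had its summit 427 bp downstream of the 5' end and 79 bp upstream of the snoRNA gene Y49E10.36. At that summit replicate 2 had a region of score 44.9 at rank 2382, above its 32.9 at the upstream summit. No region of replicate 1's list covered it.

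The pair his-67 (WBGene00001941, chrI:9988452-9988763, H4) and his-68 (WBGene00001942, chrI:9989132-9989515, H2A) is the only divergent pair of H2A with H4. Its summit lay 133 bp from his-68 and 236 bp from his-67, with a pooled score of 374.8, 158.2 in replicate 1 and 241.0 in replicate 2. The ranks were 305, 396 and 236. TGTGTCCC was centred 3.5 bp from the summit, the shortest such distance among the histone summits.

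Below the IDR set, 14 further pooled summits lay within 500 bp of a histone gene, and 23 of 80 genes had any pooled summit (28.8%, exact 95% interval 19.2 to 40.0%), against 35.3% of all protein-coding genes. A summit in the lists of both replicates was found for 19 genes (23.8%, interval 14.9 to 34.6%), against 20.7% of all protein-coding genes. Both shares were near or below those of all protein-coding genes. In the pooled list the deposited −log10 q-values of the 14 summits ran from 0.16 to 1.36, against 1.91 to 2.01 for the 5 in the IDR set. Since the pooled list includes background regions, the 14 are not established binding sites.

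**Figure D1:**
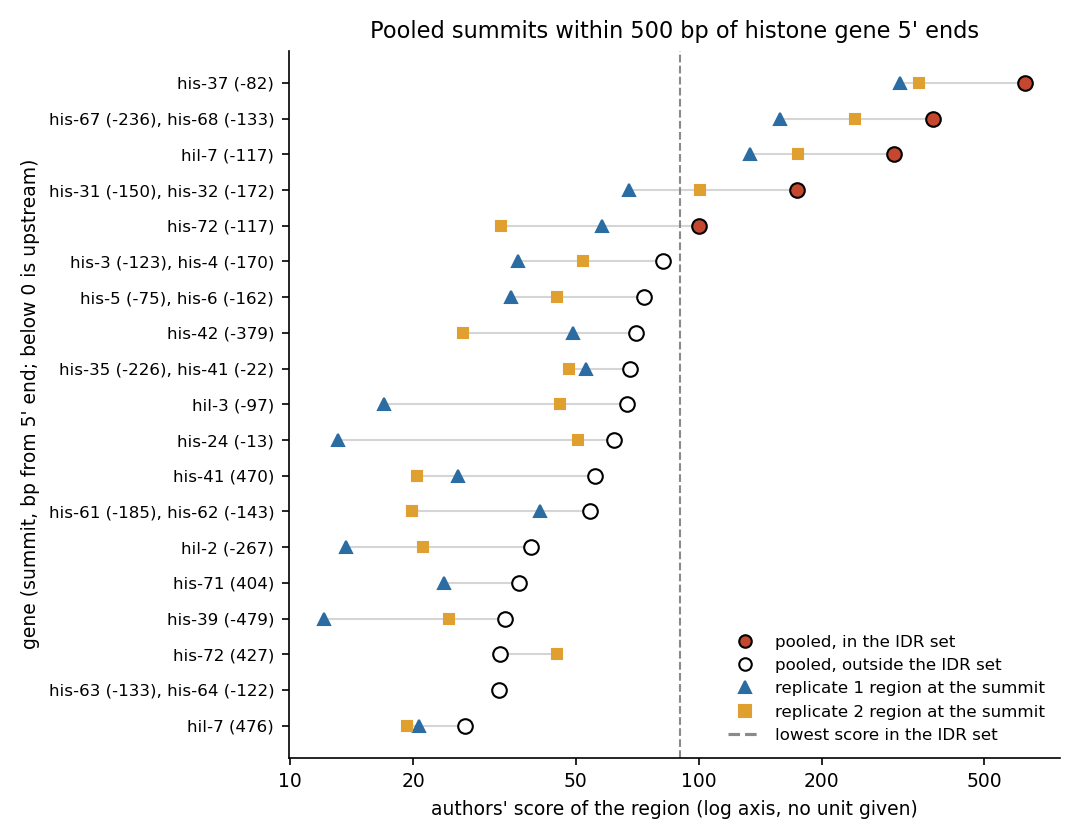
Authors' score (log axis, no unit) of each of the 19 distinct pooled summits within 500 bp of a histone gene's 5' end, with the score of the replicate 1 region (triangle) and replicate 2 region (square) at that summit where there was one; numbers after a gene give the summit's distance from its 5' end in bp, below 0 upstream. The 5 filled circles belong to the IDR set and lie right of the dashed line at 89.9, and replicate scores lie close together at his-37 and far apart at his-24 and hil-3.

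The strongest of those 14 summits was between his-3 (H2A) and his-4 (H2B), with a pooled score of 81.6, 36.1 in replicate 1 and 52.1 in replicate 2. Between his-5 (H4) and his-6 (H3) the scores were 73.3 pooled, 34.8 in replicate 1 and 45.1 in replicate 2. Both pairs lay just under the lowest IDR score of 89.9, with ranks between 1943 and 3015 in every list. The divergent pair his-35 (H2A) and his-41 (H2B), in the locus of his-37, scored 67.9 pooled, 52.9 in replicate 1 and 48.1 in replicate 2. A further summit of score 55.8 lay 470 bp downstream of the 5' end of his-41, nearer to the protein-coding gene C50F4.6.

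The 2 solitary H1 genes on the X chromosome with a pooled region differed between replicates. For his-24, the H1 gene named as a his- gene, the pooled score was 62.2, with 13.1 in replicate 1 and 50.8 in replicate 2, and its ranks were 25272 and 2002. The linker histone gene hil-3 scored 66.8 pooled, 17.0 in replicate 1 and 45.7 in replicate 2, with ranks of 15625 and 2301. Both regions were thus far higher in the list of replicate 2. The opposite order was found at his-42 (H3), with 49.3 in replicate 1 and 26.5 in replicate 2, and at his-61 (H2A) and his-62 (H2B), with 40.9 and 19.9. The summit credited to his-42 lay 379 bp upstream of it and only 210 bp from the ncRNA gene F08G2.15.

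The weakest regions stood low in the lists. The H1 gene hil-2 had a pooled score of 38.8 at rank 12531, the H3.3 gene his-71 one of 36.3 at rank 14946 and his-39 one of 33.6 at rank 18067. The region of his-71 lay 404 bp inside the gene, with 23.8 in replicate 1 and none in replicate 2. Between his-63 (H3) and his-64 (H4) the pooled score was 32.4, and no region of either replicate's list covered the summit.

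Some members had no region. Of the 9 H1 genes, hil-1, hil-4, hil-5, hil-6 and hil-8 had no summit within 500 bp in any of the 4 lists, and the solitary gene his-73 had none either. Of the 5 H3.3 genes, his-69 and his-70, which form a locus of their own, also lacked one, and his-74 had one in replicate 1 only, of score 12.2. Summits of the IDR set lay just outside the window of 2 members. The nearest to his-35 was 891 bp downstream, with a score of 178.2 and 171 bp from the 5' end of mdf-1, and the nearest to his-74 was 761 bp downstream, with 130.4, inside ccch-3.

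By class, the IDR count was 3 of 16 for H4, 1 of 17 for H2A, 0 of 16 for H2B (exact upper limit 20.6%), 1 of 15 for H3, 1 of 5 for H3.3 and 1 of 9 for H1. The pooled counts were 5, 4, 3, 4, 2 and 4 in the same order, and the exact intervals of all classes overlap. Of the 16 genes with an intron, 3 had an IDR summit and 9 a pooled one, against 4 and 14 of the 64 without, beside 6.09% and 35.3% of all protein-coding genes. The intervals for the pooled shares, 29.9 to 80.2% and 12.5 to 34%, overlap by a little.

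Clustered genes had an IDR summit in 5 of 67 cases (7.46%, interval 2.47 to 16.6%) and solitary genes in 2 of 13 (15.4%, interval 1.92 to 45.4%). In the pooled list the counts were 17 of 67 (25.4%, interval 15.5 to 37.5%) and 6 of 13 (46.2%, interval 19.2 to 74.9%). Over all protein-coding genes the shares were 6.09% in the IDR set and 35.3% in the pooled list. The intervals of clustered and of solitary genes cover these shares in both lists. With each locus counted once, 3 of 15 clusters and 2 of 13 solitary genes had an IDR summit, and 8 of 15 and 6 of 13 a pooled one. Neighbouring genes share summits and sequence, so genes are not independent observations and no test was made between clustered and solitary genes.

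The clusters differ from the solitary genes in how much of their sequence occurs once in the genome. Over the 300 bp upstream of the 5' end, the median share of unique 31-mers was 0.0% for clustered genes and 100% for solitary genes, as it was for all protein-coding genes. For 34 genes, all clustered, no 31-mer of this stretch was unique. The upstream sequence of 33 genes was letter for letter that of another member, up to 4 genes sharing a single sequence. How the authors treated reads that match several places is not given in the sources used here, and the part of it in the counts by cluster was not tested.

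The 40 histone genes with under 50% unique upstream sequence, all of them clustered, had no summit in any of the 4 lists (0 of 40, exact upper limit 8.81%). Among all 704 protein-coding genes in this range, 1.56% had an IDR summit and 5.26% a pooled one. The 29 histone genes with at least 90% unique upstream sequence included all 7 with an IDR summit (24.1%, interval 10.3 to 43.5%), against 6.42% of 18230 protein-coding genes. Of the same 29, 18 had a pooled summit (62.1%, interval 42.3 to 79.3%), against 37.4%, and 17 had one in both replicates' lists (58.6%), against 22.0%. Introns went with uniqueness: 39 of the 40 genes under 50% had no intron, the exception being his-57. Among the 29 genes at 90% or more, a pooled summit was found for 9 of the 14 with an intron and 9 of the 15 without, and an IDR summit for 3 and 4. Genes of a divergent pair can share a summit, and the 7 genes with an IDR summit have 5 distinct ones. The intervals take such genes as independent, which they are not, and no test was made. These ranges were chosen after the values were seen.

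Within that range, the intervals of clustered and solitary genes overlapped widely. An IDR summit was found for 5 of 18 clustered genes (27.8%, interval 9.69 to 53.5%) and 2 of 11 solitary ones (18.2%, interval 2.28 to 51.8%). A pooled summit was found for 12 of 18 (66.7%) and 6 of 11 (54.5%). The order of the shares was thus the reverse of that over the whole family, with intervals that cover both. Of the 11 histone genes between 50% and 90%, 0 had an IDR summit and 5 a pooled one. Among all 1039 protein-coding genes in this range the shares were 3.27% and 19.6%. Of these 5 histone genes, his-63 and his-64 share a summit, as do his-5 and his-6.

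**Figure D2:**
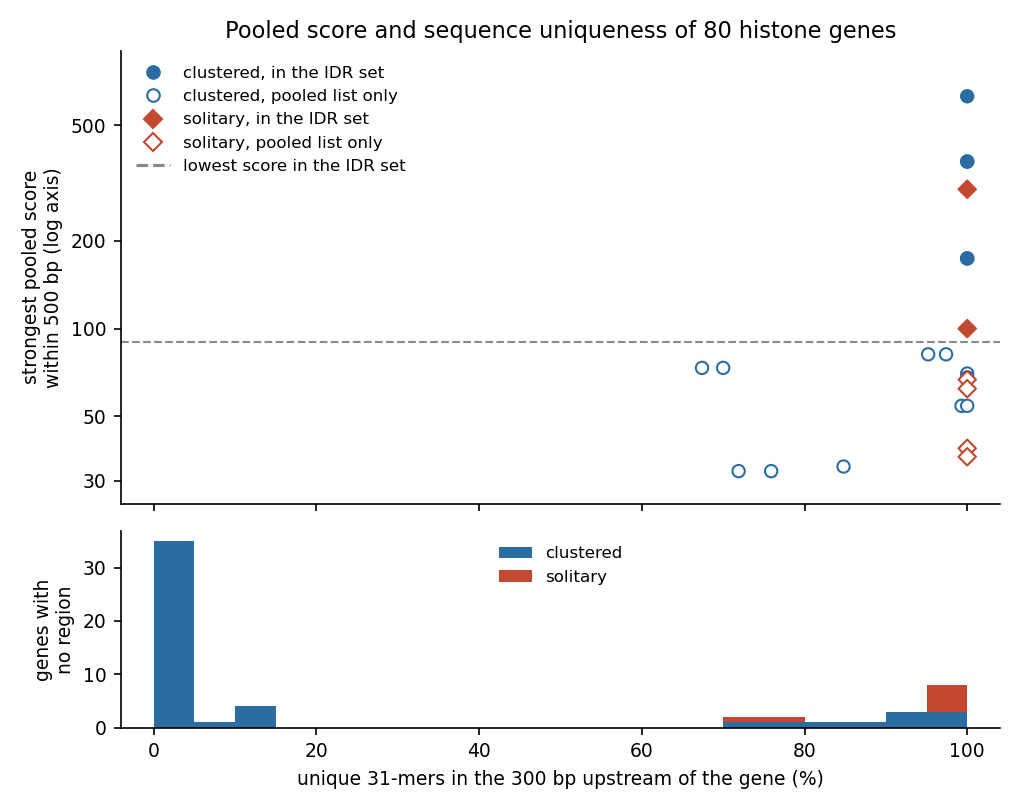
Upper panel, the strongest pooled score (log axis, no unit) within 500 bp of each histone gene with a pooled region against the share of unique 31-mers in its 300 bp upstream, where genes that share a summit and a share fall on a single point; lower panel, the number of histone genes with no pooled region by the same share. Every scored gene lies above 50% and most at 100%, and the largest group without a region, all clustered, sits at or near 0%.

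**Figure D3:**
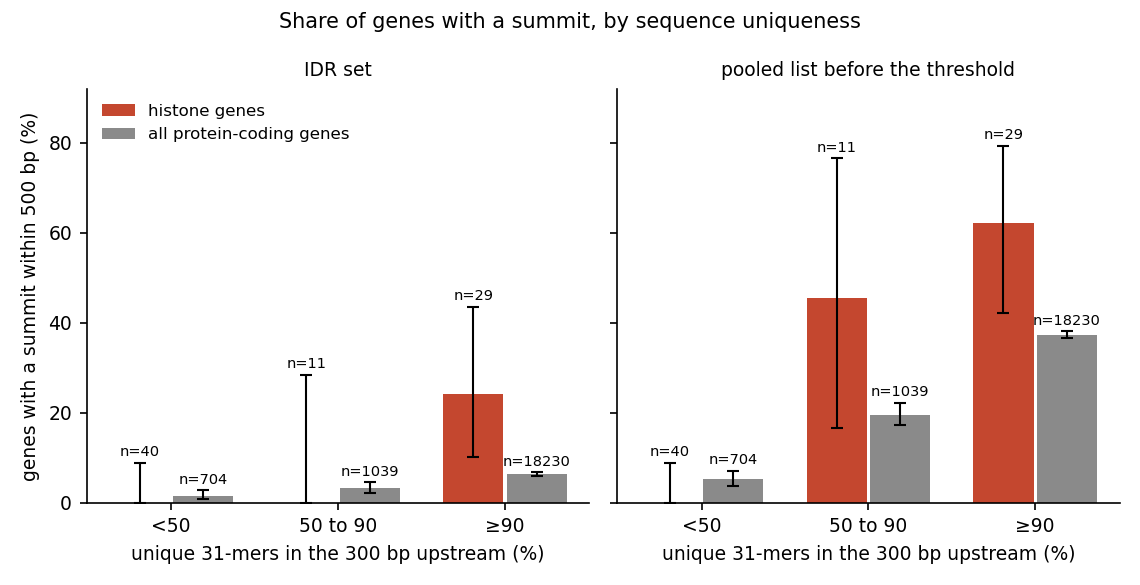
Share of genes with a summit within 500 bp of the 5' end (bars, with exact 95% intervals) by the share of unique upstream 31-mers, for histone genes and all protein-coding genes, in the IDR set (left) and the pooled list (right). The bars for histone genes under 50% are at 0, and those at 90% or more reach 24.1% and 62.1%, against 6.42% and 37.4% for all protein-coding genes. The intervals are over genes and take genes that share a summit as independent.

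The divergent pairs show the same division. There were 31 such pairs, holding 62 genes, with 228 to 369 bp between the 5' ends (median 259 bp): 16 of H2A with H2B, 14 of H3 with H4 and 1 of H2A with H4. An IDR summit lay between the genes of 2 pairs and a pooled summit between those of 7, at 5.5 to 102 bp from the midpoint (median 23.5 bp). All 20 pairs with under 50% unique sequence in between lacked a summit there in every list. Of the 8 pairs with at least 90%, 2 had an IDR summit and 5 a pooled one, and the pairs his-60 and his-59, his-2 and his-1, and his-38 and his-40 had none although the sequence between their genes was 100% unique. Per gene, 6.42% and 37.4% of protein-coding genes with at least 90% unique upstream sequence had a summit within 500 bp. These shares are counted differently, and no share over other divergent promoters is given here. Whether the pair counts are high was therefore not tested.

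**Figure D4:**
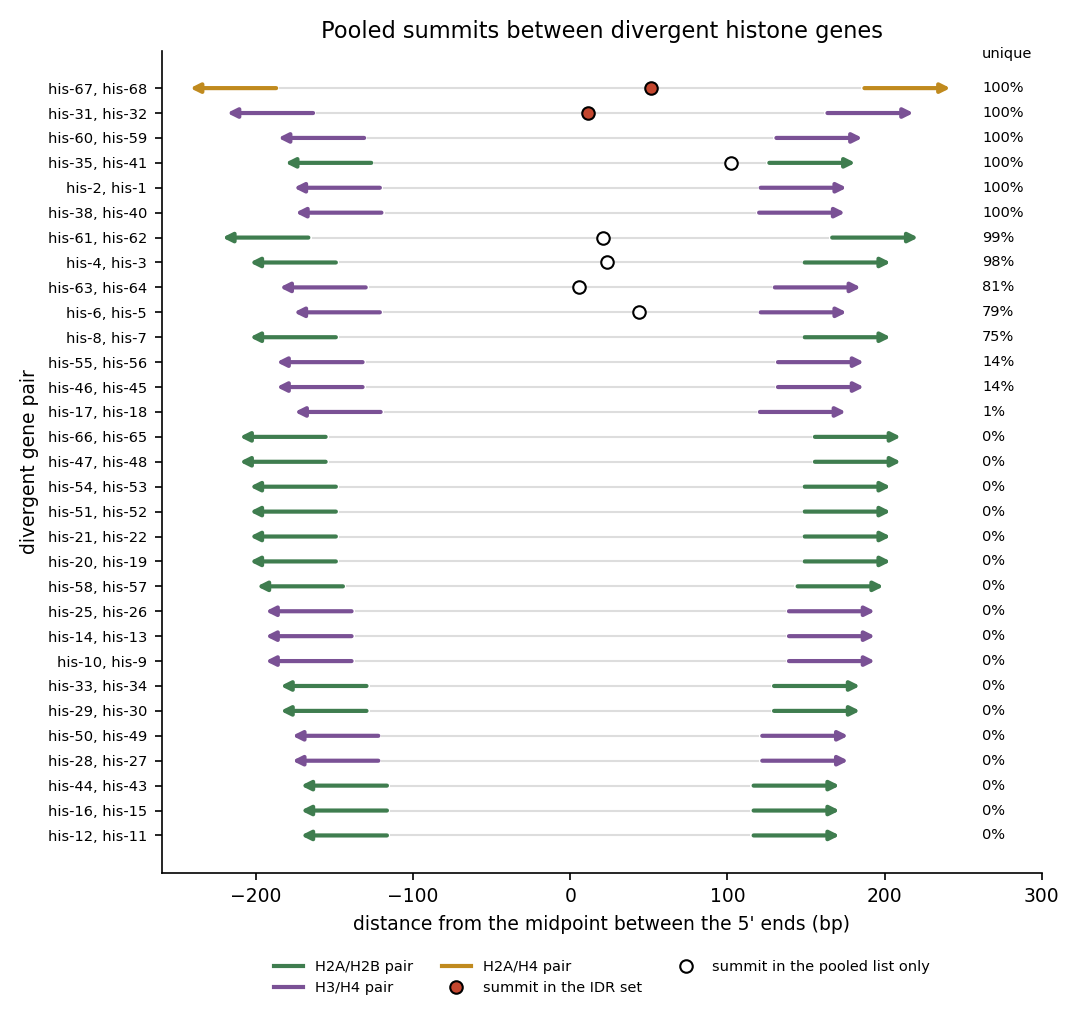
The 31 divergent histone gene pairs aligned on the midpoint between their 5' ends (distance in bp), with arrows for the direction of the genes, coloured by pair type, and circles for pooled summits; percentages give the unique 31-mers between the genes. The 7 summits, 2 of them filled for the IDR set, lie between genes of pairs with more than 50% unique sequence. Each circle is drawn right of the midpoint at the summit's distance from it, whichever side the summit lies on.

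Cluster by cluster, the 13-gene cluster on chromosome II from his-16 to his-42 had 0 IDR summits and 1 pooled summit within 500 bp of a 5' end. That summit was the one at his-42. Another in this cluster, of score 31.9, lay 690 bp downstream of the 5' end of his-25. The 8-gene cluster from his-28 to his-18 and the 6-gene cluster from his-50 to his-53, both on chromosome V, had no region in any list, and their median unique upstream share was 0.0%. The 3-gene locus of his-35, his-41 and his-37, at 100%, had a pooled summit for every gene. The 4-gene cluster of his-1 to his-4 had its only pooled summit within 500 bp of a 5' end between his-3 and his-4. Another in this cluster, of score 39.0, lay 900 bp downstream of the 5' end of his-2.

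The letters TGTGTCCC were then counted in the 300 bp from 250 bp before to 50 bp after each 5' end, on both strands. They were found for 47 of 80 histone genes (58.8%) and for 124 of 19973 protein-coding genes (0.621%), these 47 included. With identical windows counted once, 32 of 59 distinct histone windows held them. The windows of a divergent pair overlap, so letters between its genes can count for both. Both counts are thus of windows and not of separate occurrences. Since the letters were read from these promoters, the comparison is a description of the family and not a test. They were held by 14 of the 23 histone genes with a pooled summit (60.9%) and 33 of the 57 without (57.9%).

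Within 100 bp of the summit, TGTGTCCC was present at 3 of the 5 histone IDR summits and at 8 of the 19 histone pooled summits, 3.5 to 59.5 bp away. Over all 1894 nuclear IDR summits, the histone ones included, it was present at 15 (0.792%), so nearly all LIR-3 peaks lacked it. Over all 29984 nuclear pooled summits it was present at 101 (0.337%). The letters were picked by reading sequences at these histone summits, so the counts at histone summits and genes are a description and not a test. Of the 29 histone genes with at least 90% unique upstream sequence, 12 of the 17 with the letters and 6 of the 12 without had a pooled summit. In this range 37.4% of all protein-coding genes had one. Genes of a divergent pair can share both the letters and the summit, so these genes are not independent and no test was made. All 28 genes with the letters and under 50% unique sequence had no pooled summit.

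Of the motifs on the list drawn up for this family, TATAAA was found in 63.8% of histone windows and 37.9% of all protein-coding ones, and more often for clustered (68.7%) than solitary genes (38.5%). CCAAT was in 53.8% against 45.5%, and GAGAGA in 43.8% against 21.8%. GCGCGAAA was in 1 of 80 (1.25%), close to the 1.14% of all windows, and the B box of tRNA genes in 0 of 80, with 0.0701% of all windows. TATAAA was held by 13 of the 23 genes with a pooled summit and 38 of the 57 without. Both strands were searched, repeated copies of a promoter count once per gene, and a match between divergent genes can count for both.

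Among histone variants that do not carry a his- or hil- name, htz-1, which encodes H2A.Z, had an IDR summit 291 bp upstream, with a pooled score of 389.9, 202.7 in replicate 1 and 203.1 in replicate 2. Its rank of 281 is above that of every histone gene on the list but his-37. The gene of the centromeric H3 variant, hcp-3, had a pooled score of 50.8 and no IDR summit, and its paralogue cpar-1 had no pooled region.

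Of 15 genes for histone chaperones, deposition and histone mRNA processing, 6 had an IDR summit, 13 a pooled one and 10 a summit in both replicates' lists, where the shares over all protein-coding genes were 6.09%, 35.3% and 20.7%. The highest pooled scores were those of lin-53, whose product binds histones in several chromatin complexes, at 450.5, and of the chromatin assembly factor gene chaf-2, at 410.9. The others were the histone chaperone gene unc-85 (211.7), chaf-1 (157.5), cdl-1 (154.0), which encodes the stem-loop binding protein of histone mRNAs, and the nucleosome assembly gene nap-1 (107.5). The IDR summit of unc-85 lay 471 bp upstream, near the edge of the window. Those of the rest lay from 101 bp (nap-1) to 246 bp (chaf-2) upstream. The list was chosen with earlier results of these data known, so its count carries no test.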

How the data were processed

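Lists of ChIP-seq regions for LIR-3 fused to GFP were analysed, from 2 biological replicates. The authors made a list for each replicate and for the pool, and from these the IDR set, per the deposited file descriptions. Aligner, peak caller, IDR threshold and the treatment of reads with several matches: not given in the sources used here. The score of a region is the authors' deposited signal value, with no unit. The authors also deposited a −log10 q-value per region, at most 2.01 in the pooled list, and regions were ranked by score. All 1894 nuclear IDR peaks are in the pooled list with the same position and score, and no nuclear pooled region outside the set scored as high as its lowest peak. The files give no read depth.

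The ce11 lists were used with Ensembl release 115 (WBcel235). Symbols came from RefSeq by gene ID (80 of 80 matched, 22 differing from the Ensembl name). A gene was counted when its annotated 5' end had a summit at most 500 bp away. Shares carry exact Clopper-Pearson 95% intervals over genes, which cover counting error only, and with 1 group no test between conditions could be made. A 31-mer was unique when it occurred once in the genome, both strands counted. Sequences are from the RefSeq WBcel235 assembly. Tools were Python 3.11.15, pandas 2.3.3, scipy 1.17.1 and numpy 2.4.6, and the assignment of summits was tested on simulated data. No deposited column of the lists used was left unmatched.

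The members and lists were chosen with earlier results of these data known. Genes were named by rule: every member with an IDR summit within 500 bp or with its nearest one at 500 to 1000 bp, the highest pooled score of each class, all solitary H1 and H3.3 genes, and related genes with an IDR summit. Other members with a pooled region, and those of clusters, were named after their values were seen.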

Additional observations from a re-analysis of the deposited data

How the results depend on the processing

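The IDR count of 7 genes was 7 with a window of 250 bp or any base of the region, 9 with 1000 bp, 6 with the 947 strongest peaks and 5 with each summit given to the nearest 5' end only. With the 1894 strongest regions of a single replicate it was 6 without replicate 1 and 10 without replicate 2. The clustered count of 5 was 3 with each summit given to the nearest 5' end, since genes of a pair then no longer share a summit, and 5 to 8 when a replicate was left out, his-35, his-41 and his-42 being added without replicate 2. The solitary count of 2 was 1 with the 947 strongest peaks and 1 to 2 when a replicate was left out. In both cases his-72 was lost, so among solitary genes only hil-7 remained. The pooled count of 23 ran from 19 at 250 bp to 34 at 1000 bp. Shares over all protein-coding genes are not given here for these changed windows and lists. The comparison with the background thus holds for the main setting only. Clusters drawn at 2 kb or 20 kb held the same number of genes, 67, in 21 and 13 loci, 3 of them with an IDR summit each time. Restriction to members with at least 90% unique upstream sequence, chosen after seeing the data, left the IDR count at 7, of 29. No paired analysis was possible because there is a single group. The number of loci and the unknown read depth limit these counts.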
